A study of Danio rerio with 4 samples.

Results

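Calcineurin and its nuclear targets were followed in RNA from dissected zebrafish hearts as 10 genes: 5 Nfat transcription factor genes (*nfatc1*, *nfatc2a*, *nfatc3a*, *nfatc3b* and *nfatc4*), 3 genes for the catalytic subunit of the phosphatase (*ppp3ca*, *ppp3cb* and *ppp3cca*), and 2 genes for Rcan proteins, which bind and inhibit it (*rcan1a* and *rcan3*). They were taken by gene symbol from a table of 19661 genes, and each symbol matched 1 row. Hearts were collected at 48 hours postfertilization (hpf) from *egr3* mutants homozygous for *bns577* (bns577-/-), an allele lacking 11 bp of *egr3* in every cell of the animal, and from siblings homozygous for the wild-type allele (bns577+/+). Each genotype was represented by 2 samples, each a pool of 20 hearts, so a value averages over animals and over all cell types of the heart. The comparison asks whether the calcineurin and Nfat genes, which are used in heart valve formation, differ in hearts that lack functional Egr3.

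Calcineurin is a calcium-activated phosphatase. Calmodulin loaded with calcium binds its catalytic subunit, the enzyme removes phosphates from cytoplasmic Nfat proteins, and these move into the nucleus and act on target genes until kinases phosphorylate them again and they are exported. In the heart, Nfatc1 is known as an endocardial factor needed for valve formation in the mouse, and *nfatc1* is expressed in the endocardium of the zebrafish. Rcan1 transcription is itself induced by calcineurin and Nfat in mammalian cells, and in mammalian T cells Nfat factors act upstream of Egr2 and Egr3.

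Values are counts per gene that the authors normalized and rounded to whole numbers, and their totals ranged from 9161759 to 9481943 over the 4 libraries. They are called normalized counts here and depend on transcript length, so levels were compared between libraries and not between genes. Replicate numbers hardly differed in these values. Replicate 2 minus replicate 1 had an SD of 0.67 (log2) over all genes in wild types, but its average over both genotypes had an SD of 0.05, since the difference in mutants was nearly its mirror image (r = -0.99 across genes). Whether a term for the replicate number was taken out before deposit is not given in the sources used here. If it was, the standard errors, p-values and block results do not measure the full spread between pools. The sequencing overview of the study pairs wild-type replicate 2 with a library file named as a mutant, and mutant replicate 2 with a file named as a wild type; the sample labels were followed, and the replicate 1 difference stands beside the result for each of the 10 genes. *egr3* itself had 528 and 537 normalized counts in wild types and 873 and 889 in mutants, so libraries with the same genotype label were close, and exchanging the replicate 2 labels would set 528 and 889 against 873 and 537. Its level does not show which genotype is mutant, because the deletion removes only part of the transcript. Myocardial markers (7 found) summed to 25125 to 35232 and endocardial and endothelial markers (8 found) to 21547 to 24374, with no marker of either list at 0 in any library. Of the 7 myocardial markers, 5 were lower in both mutants, with log2 fold changes (mutant minus wild type) from -0.12 (*myl7*) to -0.07 (*tnni1b*). Of these, all but *cmlc1* averaged between 2000 and 4000 normalized counts. At that level 77.3% of all genes had a negative log2 fold change, with a median of -0.07. The genotypes overlapped in *myh6* (0.03) and *ttn.2* (-0.76), and *ttn.2* ranged from 3780 to 11641 normalized counts. Skin markers (5 found) summed to 2797 and 17736 in wild-type replicates 1 and 2 and to 3376 and 566 in mutant replicates 1 and 2. Neural markers (5 found) summed to 610 and 513 in wild types and 764 and 961 in mutants, and 4 of the 5 were higher in both mutants, among them the neural crest gene *sox10* (2 and 1 against 27 and 36), while *gfap* was lower (11 and 21 against 10 and 5). Of 5 skeletal muscle markers, 3 were higher in both mutants, most of all *tnnt3b* (62 and 16 against 105 and 401), and 2 were lower, with sums of 6226 and 6211 against 6266 and 6953. Over all genes tested, 24.7% had both mutants above the wild types and 25.8% had both below.

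None of the 10 genes had an adjusted p under 0.05 in limma, a linear model with moderated variances fitted to log2(normalized count + 1) of the 17501 genes averaging 5 or more and adjusted by Benjamini-Hochberg over all of them. Over all genes the same test called 1 gene (0.00571%). Before adjustment, 3 of the 10 had p under 0.05, against 21.6% of all genes: *nfatc1* and *ppp3cb* with higher values in mutants and *rcan1a* with lower values. When the model took replicate number as a block, 2 of the 10 did, *nfatc1* and *rcan1a*, against 4.9% of all genes. Without mutant replicate 1 or without mutant replicate 2 none of the 10 did. In 5 of the 10 genes the genotypes did not overlap, 3 with higher and 2 with lower values in mutants, and over all genes 50.5% did not overlap (24.7% higher, 25.8% lower). The share of the 10 genes that did not overlap was thus that of any gene in the table. The median log2 fold change (mutant minus wild type) was 0.11 over the 10 genes and 0.00 (-0.000679) over all genes tested. All 10 had a mean of at least 5, but *ppp3ca* reached it only through the wild types.

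**Figure D1:**
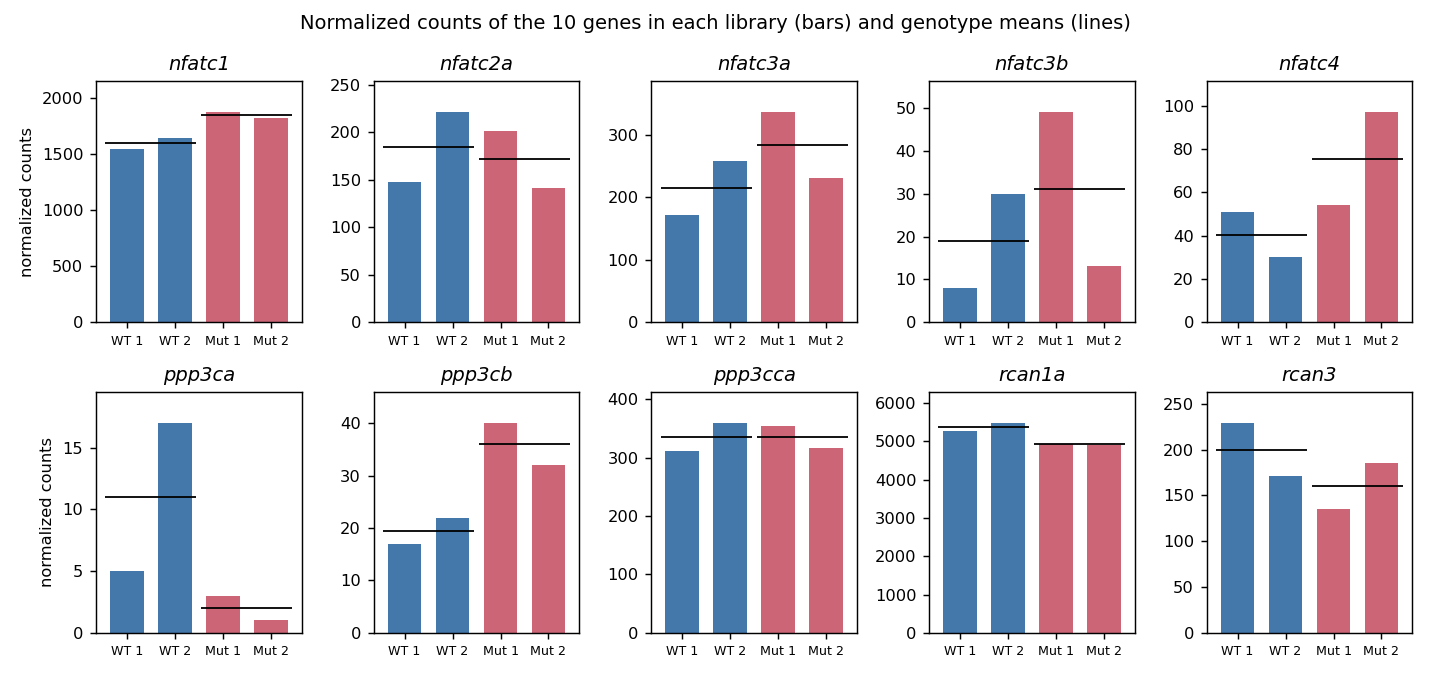
Normalized counts (vertical axes, each starting at 0 with its own scale) of each gene in wild-type replicates 1 and 2 (blue bars) and mutant replicates 1 and 2 (red bars), with the mean of each genotype as a line. *nfatc1* and *rcan1a* differ little within a genotype, whereas *nfatc3b* ranges from 8 to 30 in wild types and from 13 to 49 in mutants.

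Of the catalytic subunit genes, *ppp3cb* was higher in mutants, *ppp3cca* was nearly equal and *ppp3ca* was close to the lower end of the measured range. *ppp3cb* (ENSDARG00000025106; chromosome 14, 7789093 to 7888748) had 17 and 22 normalized counts in wild types and 40 and 32 in mutants. Both mutants lay above both wild types, at low counts in all 4 libraries. The means were 19.5 ± 3.54 and 36 ± 5.66 (SD, n = 2 each). The mutants differed by 0.85 on the log2 scale with a standard error of 0.23 (limma adjusted p = 0.18). The 95% interval ran from 0.17 to 1.53 without the replicate block and from -0.50 to 2.21 with it, and replicate 1 alone gave 1.19. Of the 5 neural markers, 4 were also higher and 1 lower in mutants. Within each genotype their sums had the replicates in the opposite order to *ppp3cb* (610 and 513 in wild types, 764 and 961 in mutants). Their part in the *ppp3cb* difference was not tested.

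*ppp3cca* (ENSDARG00000014962; chromosome 5, 27924347 to 27994679) had 311 and 359 normalized counts in wild types and 354 and 317 in mutants. The genotypes overlapped completely, with means of 335 ± 33.9 and 335.5 ± 26.2 (SD, n = 2 each). Its log2 fold change was 0.00 (0.00365), and replicate 1 alone gave 0.19. The 95% interval ran from -0.33 to 0.33 without the replicate block and from -0.51 to 0.52 with it. A difference of up to about those sizes could thus not be seen here. *ppp3ca* (ENSDARG00000004988; chromosome 21, 28958471 to 29075815) had 5 and 17 normalized counts in wild types and 3 and 1 in mutants. Both mutants lay below both wild types, but the wild types differed from each other more than the lower wild type differed from the mutants. Its log2 fold change of -1.88 had a 95% interval from -4.12 to 0.36 (limma adjusted p = 0.277). With so few counts the value depended on the number added before taking logs, at -2.10 with 0.5 and -1.10 with 5. The gene also passed the filter only through its wild types. Replicate 1 alone gave -0.58.

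The regulatory subunit, calcineurin B, is encoded by *ppp3r1a* and *ppp3r1b*. *ppp3r1b* had 1168 and 1177 normalized counts in wild types and 1307 and 1343 in mutants, and *ppp3r1a* had 123 in both wild types and 153 and 159 in mutants. In both genes the mutants lay above the wild types. The log2 fold changes were 0.18 (standard error 0.04) for *ppp3r1b* and 0.34 (standard error 0.08) for *ppp3r1a*, with adjusted p of 0.147 and 0.163 from limma. With the replicate block the 95% intervals included 0, from -0.06 to 0.41 for *ppp3r1b* and from -0.31 to 0.99 for *ppp3r1a*. Replicate 1 alone gave 0.16 and 0.31, respectively. *ppp3ccb*, a further catalytic subunit gene and the paralog of *ppp3cca*, had 280 and 247 normalized counts in wild types and 311 and 365 in mutants (0.36 ± 0.13 SE on the log2 scale, limma adjusted p = 0.237). Its 95% interval included 0 without the replicate block (from -0.009 to 0.72) and with it (from -0.20 to 0.91), and replicate 1 alone gave 0.15.

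Among the 5 Nfat factor genes, *nfatc1* was the only one whose 95% interval excluded 0. *nfatc1* (ENSDARG00000036168; chromosome 19, 22216778 to 22304534) had 1549 and 1644 normalized counts in wild types and 1872 and 1825 in mutants. Both mutants lay above both wild types, and the gap between the genotypes was larger than the difference within either. The log2 fold change was 0.21 with a 95% interval from 0.08 to 0.35 without the block and from 0.0011 to 0.42 with it. The adjusted p was 0.15 and 0.841, respectively (limma). Replicate 1 alone gave 0.27 and replicate 2 alone 0.15. Neither reached 1.5-fold, as 4 of the 10 genes did (*nfatc3b*, *nfatc4* and *ppp3cb* upward, *ppp3ca* downward), against 17.1% of all genes. These 4 had means of 6.5 (*ppp3ca*) to 58 (*nfatc4*) normalized counts, and fold changes spread more widely at low counts. The quartiles of log2 fold change over all genes tested were -0.56 and 0.70 from 5 to 20 normalized counts, the class of *ppp3ca*. From 20 to 100, the class of *nfatc3b*, *ppp3cb* and *nfatc4*, they were -0.32 and 0.43, and all of these genes lay above the upper one. From 500 to 2000 they were -0.10 and 0.09.

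Bulk RNA does not tell more cells of a type from more RNA per cell, and *nfatc1* is expressed in the endocardium, so the endothelial genes are given beside it. Of the 8 endothelial markers, *kdrl*, a Vegf receptor gene, had 1658 and 1611 normalized counts in wild types and 1799 and 1917 in mutants, and *etv2*, an endothelial transcription factor gene, had 1210 and 1165 against 1332 and 1433. Both were higher in mutants by a similar amount to *nfatc1*, with log2 fold changes of 0.18 and 0.22. The other 6 had log2 fold changes from -0.06 to 0.14. Of these, *fli1a* (4406 and 4309 against 4054 and 4291) and *egfl7* (1682 and 1717 against 1625 and 1647) were lower in both mutants. Of the 8 markers, 2 were thus higher and 2 lower in mutants without overlap. The summed markers overlapped between genotypes (23263 and 21547 in wild types, 21780 and 24374 in mutants). Of 5 valve endocardium genes, 3 were lower and 1, *notch1b*, was higher in both mutants, against 25.8% and 24.7% of all genes. The 3 were *has2* (-0.18), *alcama* (-0.10) and *klf2a* (-0.11). All 3 averaged more than 2000 normalized counts. At that level most genes were lower in mutants, with a median log2 fold change of -0.07 from 2000 to 4000 and -0.09 above. The part of endothelial cell number in the *nfatc1* difference was not tested.

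*nfatc4* (ENSDARG00000054162; chromosome 2, 37775655 to 37803614) encodes an Nfat factor that takes part in cardiac hypertrophy in the mouse. It had 51 and 30 normalized counts in wild types and 54 and 97 in mutants. The genotypes did not overlap, but mutant replicate 1 exceeded wild-type replicate 1 by only 3 normalized counts. The log2 fold change of 0.87 had a 95% interval from -0.40 to 2.14 (limma adjusted p = 0.34), and the value was 0.08 from replicate 1 and 1.66 from replicate 2. Leaving out 1 library gave 0.45 (without mutant replicate 2) to 1.29 (without mutant replicate 1). The summed neural markers (610 and 513 against 764 and 961) ordered the libraries as *nfatc4* did. So did the skeletal muscle markers (6226 and 6211 against 6266 and 6953) and the blood markers (7156 and 6959 against 7300 and 7794). Of the 5 neural and 5 muscle markers, 1 and 2, respectively, were lower in both mutants. Of the 6 blood markers, 1 was lower and 2 were higher in both mutants, against 25.8% and 24.7% of all genes. Among them only *gata1a* (502 and 460 against 668 and 755) had the library order of *nfatc4*. *alas2*, the most abundant, overlapped (4233 and 4021 against 4207 and 4586). In *hbae3*, *hbbe1.1*, *hbbe2* and *hbae1.1* wild-type replicate 2 was above wild-type replicate 1. The part of these cell types in the *nfatc4* difference was not tested.

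In the remaining Nfat genes the genotypes overlapped. *nfatc3a* (ENSDARG00000076297; chromosome 7, 34823533 to 34927961) had 172 and 258 normalized counts in wild types and 336 and 231 in mutants. *nfatc2a* (ENSDARG00000100927; chromosome 23, 39089574 to 39164866) had 148 and 221 in wild types and 202 and 141 in mutants. *nfatc3b* (ENSDARG00000051729; chromosome 25, 36219436 to 36248053) had 8 and 30 in wild types and 49 and 13 in mutants. In all 3 genes wild-type replicate 2 was above wild-type replicate 1 and mutant replicate 2 below mutant replicate 1. Summed skin markers were ordered in the same way (17736 above 2797, and 566 below 3376). So were summed myocardial markers (35232 above 27921, and 25125 below 29299). In that sum *ttn.2* (6313 and 11641 against 6734 and 3780) and *myh6* (8169 and 9625 against 9652 and 8481) varied most. *cmlc1* (1444 and 1447) and *tnnt2a* (2235 and 2247) had the opposite order in mutants. Replicate differences were opposite in the 2 genotypes in 88.3% of all genes tested, so such a match is not particular to a list. The part of either cell type in these values was not tested. The log2 fold changes were 0.40 for *nfatc3a* (95% interval from -0.49 to 1.29), -0.10 for *nfatc2a* (from -0.97 to 0.77) and 0.66 for *nfatc3b* (from -2.18 to 3.50). Replicate 1 alone gave 0.96, 0.45 and 2.47 for the 3 genes in that order. The *nfatc3a* value was 0.11 without wild-type replicate 1, 0.13 without mutant replicate 1, 0.69 without wild-type replicate 2 and 0.67 without mutant replicate 2. The sign of the other 2 depended on which library was left out. For *nfatc2a* the value was 0.19 without wild-type replicate 2 and 0.16 without mutant replicate 2, and for *nfatc3b* it was -0.23 without wild-type replicate 1 and -0.25 without mutant replicate 1.

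**Figure D2:**
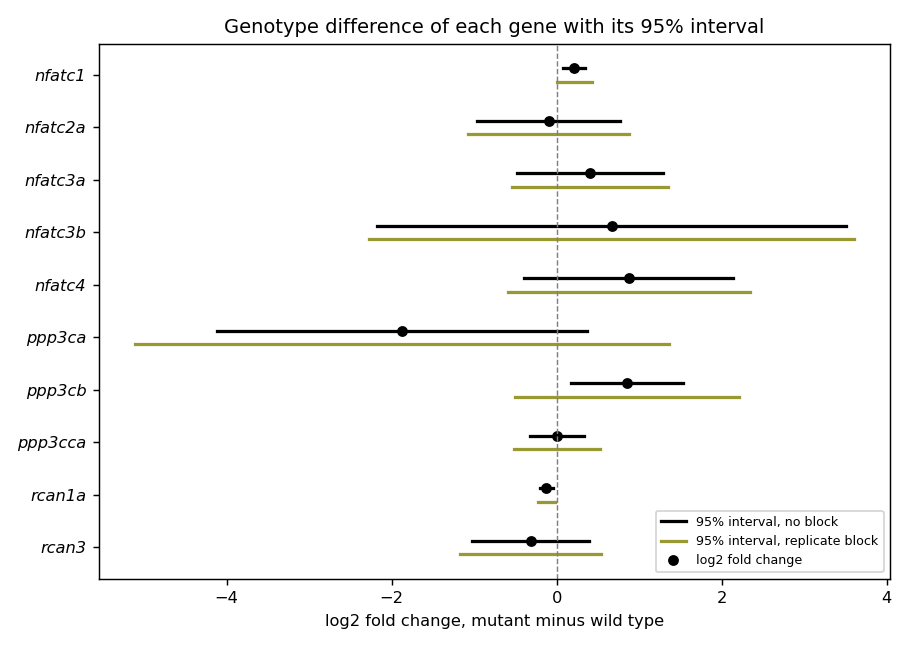
Log2 fold change (horizontal axis, mutant minus wild type; points) of each gene with its 95% interval from limma without a block (black) and with replicate number as a block (olive). Without the block the intervals of *nfatc1*, *ppp3cb* and *rcan1a* exclude 0, and with it that of *ppp3cb* includes 0.

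*nfat5a* and *nfat5b* encode the Nfat5 type of factor, which shares the DNA binding domain of the family, is not a calcineurin substrate and responds to osmotic stress in mammals. *nfat5a* had 130 and 143 normalized counts in wild types and 209 and 196 in mutants. Both mutants were well above both wild types, by 0.57 ± 0.10 SE on the log2 scale (limma adjusted p = 0.136; 95% interval from -0.06 to 1.19 with the replicate block), and 0.68 from replicate 1 alone. Its paralog *nfat5b* overlapped between genotypes (60 and 43 against 42 and 61). *nfatc2ip*, which encodes a protein that interacts with Nfat in mammals, had 615 and 654 normalized counts in wild types and 683 and 665 in mutants (log2 fold change 0.09, 95% interval from -0.08 to 0.26).

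Of the Rcan genes, *rcan1a* (ENSDARG00000003109; chromosome 9, 35843732 to 35865528) had 5275 and 5475 normalized counts in wild types and 4928 and 4915 in mutants. Both mutants lay below both wild types, and the difference within a genotype was smaller than that between them. The means were 5375 ± 141 and 4921.5 ± 9.19 (SD, n = 2 each). On the log2 scale the difference was -0.13 ± 0.03 SE (limma adjusted p = 0.147), and the 95% interval was from -0.20 to -0.05 without the replicate block and from -0.23 to -0.02 with it. Replicates 1 and 2 alone gave -0.10 and -0.16.

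The direction of *rcan1a* was that of most abundant genes. Over the 116 genes whose mean was 4000 normalized counts or more, 87.1% had a negative log2 fold change, the median was -0.09, and 47.4% had an unadjusted limma p under 0.05 with lower values in mutants. In that class 17 of the 116 genes (14.7%, *rcan1a* included) had a log2 fold change at or below that of *rcan1a*. The median was -0.07 in the 891 genes from 2000 to 4000 and 0.03 in the 5283 genes from 100 to 500. When the libraries were aligned across levels by cyclic loess, an alternative chosen after seeing the data, the log2 fold change was -0.05 for *rcan1a* (limma adjusted p = 0.177) and 0.24 for *nfatc1* (limma adjusted p = 0.096). The *rcan1a* value thus moved by more than 1.5 times with the scaling.

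**Figure D3:**
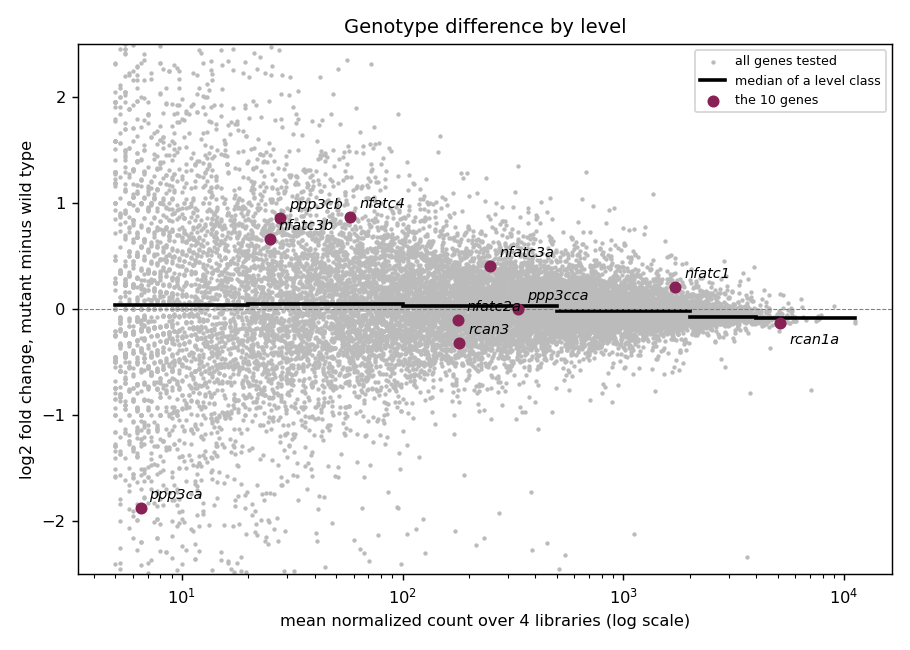
Log2 fold change (vertical axis, mutant minus wild type) against the mean normalized count over the 4 libraries (horizontal axis, log scale) for all genes tested (grey), the 10 calcineurin, Nfat and Rcan genes (purple), and the median of each level class (black lines). The median falls to -0.09 in the most abundant class, where *rcan1a* lies at -0.13, and genes beyond 2.5 in either direction lie outside the axes.

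*rcan3* (ENSDARG00000032623; chromosome 17, 26879725 to 26926577) had 229 and 171 normalized counts in wild types and 135 and 186 in mutants. The genotypes overlapped, and the sign differed between replicate 1 (-0.76) and replicate 2 (0.12). Its log2 fold change was -0.32 (95% interval from -1.03 to 0.39, adjusted p = 0.498 from limma), and leaving out 1 library gave -0.55 (without mutant replicate 2) to -0.09 (without mutant replicate 1). *rcan2*, the further member of the inhibitor family in the table, also overlapped, with 1103 and 977 normalized counts in wild types and 965 and 1127 in mutants.

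The 10 genes followed the replicate pattern of the whole table. In all 10, replicate 2 differed from replicate 1 in opposite directions in the 2 genotypes, as it did in 88.3% of all genes tested. In 8 genes wild-type replicate 2 was above wild-type replicate 1, and in *nfatc4* and *rcan3* it was below. The same-numbered differences between mutant and wild type therefore had the same sign in only 5 of the 10 genes. In *nfatc3b* they were 2.47 and -1.15 on the log2 scale. The crossed differences lay close together. For *nfatc3b*, mutant replicate 2 minus wild-type replicate 1 was 0.64 and mutant replicate 1 minus wild-type replicate 2 was 0.69, and in the 9 genes other than *ppp3ca* these crossed values differed from each other by 0.04 to 0.09. Crossed pairs thus differed far less than same-numbered pairs in most of the 10 genes, but hardly in *rcan1a*, whose gaps were 0.05 and 0.06. This is a property of the deposited values and is not particular to the 10 genes. The gap between crossed pairs depends only on the average of replicate 2 minus replicate 1 over both genotypes. That average had an SD of 0.05 over all genes tested.

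**Figure D4:**
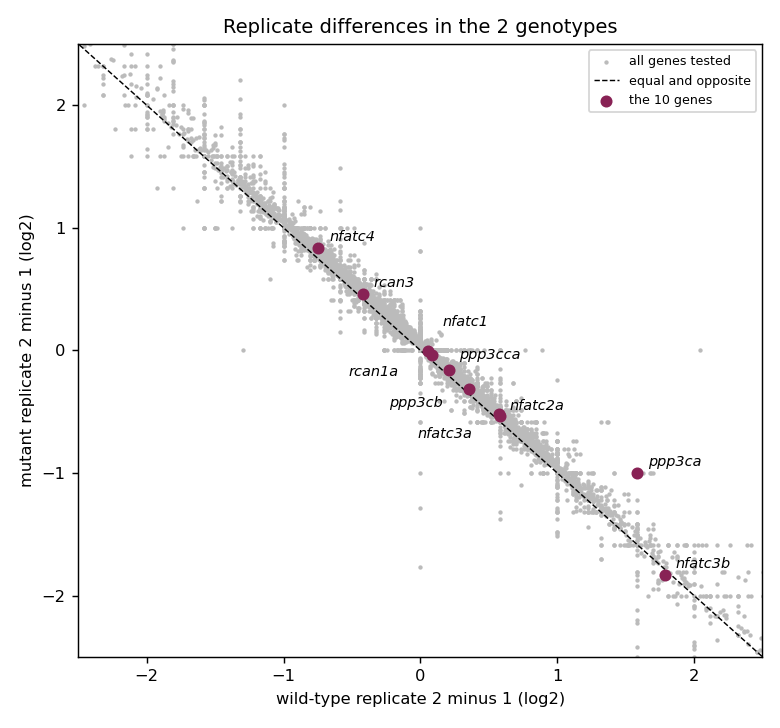
Replicate 2 minus replicate 1 on the log2(normalized count + 1) scale in mutants (vertical axis) against the same difference in wild types (horizontal axis) for all genes tested (grey) and the 10 genes (purple), with a dashed line where both are equal and opposite. *nfatc3b* lies farthest from the center among the 10, at 1.78 in wild types and -1.84 in mutants, *ppp3ca* lies farthest from the line, and genes beyond 2.5 in either direction lie outside the axes.

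The 10 genes lie on 10 chromosomes, none of them chromosome 8, which carries *egr3*, and their annotated spans run from 21.8 kb (*rcan1a*) to 117 kb (*ppp3ca*). The deposited KEGG annotation places all 8 Nfat and catalytic subunit genes in the Wnt signaling pathway (149 genes in the table) and 6 of them in MAPK signaling (264 genes). The 3 catalytic subunit genes and *nfatc2a* are annotated to VEGF signaling (74 genes). *rcan1a* and *rcan3* carry none of these terms.

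Other pathway genes were read from 6 lists with 58 symbols. Of these symbols 54 were found as 55 genes, since *calm3a* names 2 genes of the table. The lists held the other calcineurin, Nfat and Rcan genes, genes that act on calcineurin and Nfat, and the Mef2 factors with Gata4. Of the 53 tested, none had an adjusted p under 0.05 in limma, and before adjustment 5 had p under 0.05 with higher and 5 with lower values in mutants (21.6% of all genes in either direction). With the replicate block none of the 53 had p under 0.05 before adjustment, against 4.9% of all genes. The median log2 fold change of the 53 was 0.01. Of the other calcineurin, Nfat and Rcan genes, 7 were tested. Without overlap, 5 were higher and 0 lower in mutants, against 24.7% and 25.8% of all genes. Before adjustment 3 of the 7 had a limma p under 0.05 (*ppp3r1a*, *ppp3r1b* and *nfat5a*), all with higher values in mutants.

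The calmodulin genes encode the calcium sensor of calcineurin. In the 6 genes tested the log2 fold changes ran from -0.19 to 0.11, and 1, *calm3b*, had an unadjusted p under 0.05. *calm3b* is abundant, with 4193 and 4351 normalized counts in wild types and 3986 and 3977 in mutants. Its log2 fold change of -0.10 lay close to the median of genes at that level. *calm1b* moved most in the list and overlapped between genotypes (1013 and 772 against 666 and 904). Vertebrate calmodulin genes encode the same protein and are alike in sequence, and reads matching several places had been removed, so the split among them is uncertain.

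Calcium reaches calmodulin from stores through IP3 receptors and from outside through Stim and Orai proteins. None of the 12 genes for this entry had an unadjusted p under 0.05 in limma. *plcg1*, which encodes the phospholipase that makes IP3 below receptor tyrosine kinases, had 515 and 613 normalized counts in wild types and 776 and 675 in mutants. Both mutants lay above both wild types (0.36 on the log2 scale, limma adjusted p = 0.238). *stim2a* lay the other way by a similar amount (248 and 308 against 235 and 196, -0.36 on the log2 scale). Of the 12 genes, 3 were higher and 3 lower in mutants without overlap, against 24.7% and 25.8% of all genes.

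Kinases phosphorylate Nfat and return it to the cytoplasm. Of 12 genes for Dyrk, Gsk3 and casein kinase 1 proteins, 3 were higher and 2 lower in mutants without overlap. Over all genes these shares were 24.7% and 25.8%. Only 1 of the 12 genes had an unadjusted limma p under 0.05, against 21.6% of all genes. It was *gsk3bb*, with 16 and 19 normalized counts in wild types and 29 and 25 in mutants (0.60 ± 0.20 SE on the log2 scale, limma adjusted p = 0.227). Its paralog *gsk3ba* had 1994 and 1942 normalized counts in wild types and 1902 and 2022 in mutants. *csnk1da* had 566 and 506 in wild types and 591 and 684 in mutants, the largest log2 fold change (0.25) among kinases with a mean of at least 50. *dyrk1ab* (579 and 595 against 587 and 592) and *dyrk2* (384 and 388 against 382 and 391) were nearly level across the 4 libraries, with 95% intervals within 0.17 of 0 on the log2 scale. With the replicate block the intervals ran from -0.34 to 0.35 for *dyrk1ab* and from -0.42 to 0.42 for *dyrk2*.

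Among other calcineurin inhibitors and anchors, *cabin1* was lower in mutants. It encodes a nuclear protein that binds and inhibits calcineurin in mammals. *cabin1* had 133 and 141 normalized counts in wild types and 97 and 95 in mutants, and the genotypes were well apart (-0.51 ± 0.09 SE on the log2 scale, limma adjusted p = 0.14; 95% interval from -1.21 to 0.19 with the replicate block), and replicate 1 alone gave -0.45. The gene lies on chromosome 8 at 1.05 Mb from *egr3*, and alleles near *egr3* are inherited together with the mutation, so linkage and loss of Egr3 cannot be told apart for it. *chp1*, a calcineurin B homolog gene, was higher in mutants (750 and 747 against 852 and 886; log2 fold change 0.21, limma adjusted p = 0.149). The myozenin genes encode Z-disc proteins that bind calcineurin. *myoz2b*, with 2742 and 2884 normalized counts in wild types and 2617 and 2576 in mutants, had a log2 fold change of -0.12, and *myoz2a* had 12 and 18 against 8 and 6.

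**Figure D5:**
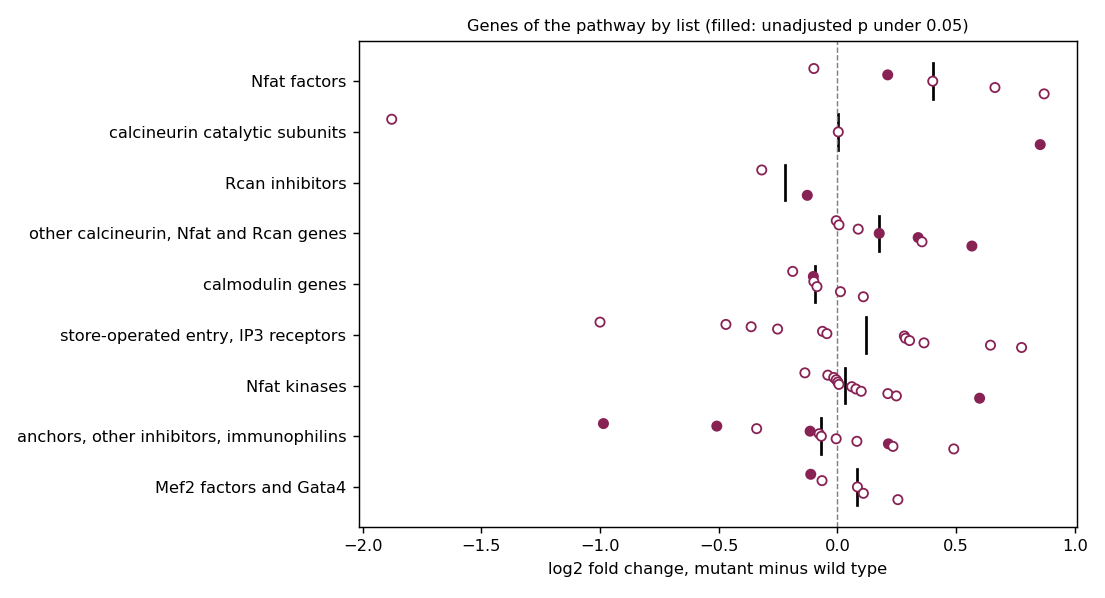
Log2 fold change (horizontal axis, mutant minus wild type) of every gene tested in each list (rows; the first 3 rows are the 10 genes), with the median of each list as a black bar and genes with an unadjusted limma p under 0.05 filled. The kinase genes lie between -0.14 and 0.60, and *ppp3ca* stands farthest out at -1.88.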

How the data were processed

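Total RNA from dissected hearts was converted to libraries with a low-input SMART-Seq kit. According to the submitters' processing notes, the authors used Trimmomatic 0.39, STAR 2.7.10a, Picard 2.27.1, featureCounts 2.0.2 and DESeq2 1.30.1 with the build danRer11. Before counting, the authors discarded duplicates, reads matching several places, and reads from ribosomal RNA or mitochondria. The authors normalized their counts and rounded the result, so the deposited values were treated as a score and not as raw counts, and limma (3.58.1, R 4.3.3) was used on log2(normalized count + 1), with a variance trend and without a block, for genes with a mean of at least 5. Duplicate removal can limit the counts of abundant genes. Tables were handled with Python 3.11.15 and pandas 2.3.3, and the fit was tested on simulated data. The simulated noise was independent in each library. It did not hold the mirrored replicate differences of the deposited values, so that test does not cover them.

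With 2 samples per genotype the smallest exact two-sided permutation p is 0.333, so none was computed. The p-values measure only the spread left in the deposited values of these samples, in which the average replicate difference is nearly absent (SD 0.05). Without the block 21.6% of all genes had an unadjusted limma p under 0.05, and with it 4.9%. The standard errors without the block may therefore be too small. The members and lists were chosen with earlier results of these data known. Named genes are the members, all other calcineurin, Nfat and Rcan genes, and, per further list, the gene with the largest absolute log2 fold change at a mean of at least 50 and any that reached 1.5-fold with an unadjusted p under 0.05. *calm3b*, *stim2a*, *gsk3ba*, *dyrk1ab*, *dyrk2*, *chp1*, *myoz2b*, *mef2aa*, *mef2d* and the marker genes were named after their values were seen. *mef2ca*, *mef2ab*, *mef2b* and *gata4* were also named outside that rule. Alternatives were other pseudocounts, filters and scalings, no trend, a replicate block and leaving out each library. Coordinates are those of the deposited annotation.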

Additional observations from a re-analysis of the deposited data

How the results depend on the processing

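In limma 1 gene passed an adjusted p of 0.05 without a block. That count was 0 when all genes with a mean above 0 were tested, 3 with a mean of at least 20, 28 without the variance trend, 0 with cyclic loess scaling and 0 with the replicate block (858 of 17501 genes at an unadjusted p under 0.05). Leaving out each library gave 0 in all 4 fits. None of the 10 genes and none of the other pathway genes passed under any of these settings. Before adjustment, 3 of the 10 genes and 10 of the 53 others had p under 0.05, and leaving out each library gave 0 to 2 and 0 to 4. With the replicate block the second count was 0. The crossed replicate block was added after same-numbered deviations were seen to be opposite (correlation across genes -0.99). It called 12169 of all 17501 genes, 9 of the 10 and 32 of the others (33 before adjustment). This block takes up the mirrored differences that led to its choice. The spread it leaves is the nearly absent average replicate difference (SD 0.05), so most genes are called and these counts support no genotype difference. In this balanced design the block changes the standard errors and cannot change a fold change. Signs turned when a library was left out for *nfatc2a* (-0.39 to 0.19), *nfatc3b* (-0.25 to 1.58) and *ppp3cca* (-0.10 to 0.11), and for *ppp3cca* also with cyclic loess scaling (-0.021). The cause was not tested. *ppp3ca* was not tested at a mean of at least 20 or without wild-type replicate 2, where its mean fell under the filter.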

Other observations

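The Mef2 factors and Gata4 are partners or targets of calcineurin signaling in mammalian heart muscle. Of 7 genes in this list, 5 were tested, and *mef2ab* (2 and 0 normalized counts in wild types, 0 in both mutants) and *mef2b* (2 and 2 against 1 and 2) were below the filter. *mef2aa* had 3316 and 3416 normalized counts in wild types and 3106 and 3121 in mutants (-0.11 ± 0.03 SE on the log2 scale, limma adjusted p = 0.164). *mef2d* was lower in both mutants as well, at -0.06, and both genes belong to the abundant class in which the median was below 0. *mef2ca* and *mef2cb* lay the other way, with 757 and 730 against 774 and 831 for *mef2ca* and 265 and 237 against 278 and 322 for *mef2cb*, the largest change of the list (0.25). *gata4* overlapped between genotypes (554 and 648 against 676 and 597). No adjusted p of these 5 genes was under 0.05, and before adjustment that of *mef2aa* was.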
